A study of Zea mays subsp. mays with 8 samples.

Results

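The loci described here are transcription start regions of maize that were listed in root and in shoot of the inbred line B73 and in neither of the 2 sets named Mo17. Start-site clusters on the same strand that overlapped by at least 1 bp were merged into loci over all 4 sets, which gave 27756 loci. A locus was left out when the dominant (strongest) site of any of its clusters lay in a dense run, meaning at least 10 such sites of the same set with gaps of at most 2000 bp. Of the 11810 remaining loci with a cluster in both B73 sets, 1530 had none in the sets named Mo17, which is 13.0% (95% Wilson interval 12.4 to 13.6). These 1530 are called B73-only loci below, and the other 10280 are called the other loci. They were chosen by the lists of clusters themselves, through the measured signal that put a cluster on a list, so this share is a description and supports nothing.

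The assay was CAGE (cap analysis of gene expression), in which the 5′ end of an RNA is pulled down by its cap and read as a tag of 27 bp. The groups used here were roots and shoots of wild type B73 seedlings, 14 days old, with 2 libraries per group and 5 seedlings pooled in each library. The labels give A632, also an inbred maize line, as the other line, again with roots and shoots and 2 libraries each, 8 libraries in all. The files name their other 2 sets Mo17, a further inbred line, which is in none of the labels, so they enter here only by where they list a cluster. Every group is labelled wild type, with no treatment. Each set holds 1 value per cluster and none per library, so no difference below has a replicate check and no test could be run. Intervals treat loci as independent and cover counting error only. The clusters carry no gene names, so neither the labelled tissues nor the genes behind the loci could be checked.

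Transcription by RNA polymerase II starts at a core promoter, and the start can be fixed to a few bases or spread over a wider region. Maize inbred lines are known to differ in gene content, with stretches that are present in the genome of B73 and missing from another line, and also in the sequence and activity of promoters that both lines carry. Because the maize reference genome was assembled from B73, tags of another line may also fail to be placed where its sequence differs from that reference.

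Most B73-only loci were weak start regions. Signal is the authors' normalized tag value summed over a cluster. In B73 root it had a median of 3.56 at B73-only loci and 6.81 at the other loci, and in B73 shoot 5.61 and 11.1. The strongest site of a B73-only locus held a median of 13 tags in root and 17 in shoot, against 21 and 29 at the other loci. The range was wide, from 0.267 to 1239 in root signal and from 0.531 to 457 in shoot signal. All B73-only loci together took 4.32% of the signal in root and 3.56% of that in shoot. They lay on both strands, with 51.9% on the plus strand against 50.3% of the other loci.

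The share of B73-only loci was lower among stronger loci. Loci were ordered by the lower of their 2 B73 signals. Below a signal of 1, 265 of 1182 loci were B73-only (22.4%, 20.1 to 24.9). From 5 to below 10 the share was 10.5% of 2400 (9.38 to 11.8), and from 50 to below 100 it was 3.55% of 366 (2.09 to 5.98). At 100 or more, 9 of 200 loci were B73-only (4.50%, 2.39 to 8.33). The sets differ in depth, and the part of depth in this order was not tested. Clusters with a signal below 1 were rarely listed alone. Of these, 99.2% of 1334 in B73 root and 99.1% of 116 in B73 shoot shared their locus with another set, against 95.3% and 91.2% of all clusters. Whether the listing of a weak cluster depended on another set was not tested. Loci that lacked a Mo17-named cluster mostly lacked it in both tissues. Of all 11810 loci of both B73 sets, 1831 had no cluster in the Mo17-named root set and 1752 had none in the Mo17-named shoot set. Of the 1831, 83.6% were also without one in the shoot set, and of the 1752, 87.3% were without one in the root set. These shares come from the lists that the rule used and are a description only.

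**Figure D1:**
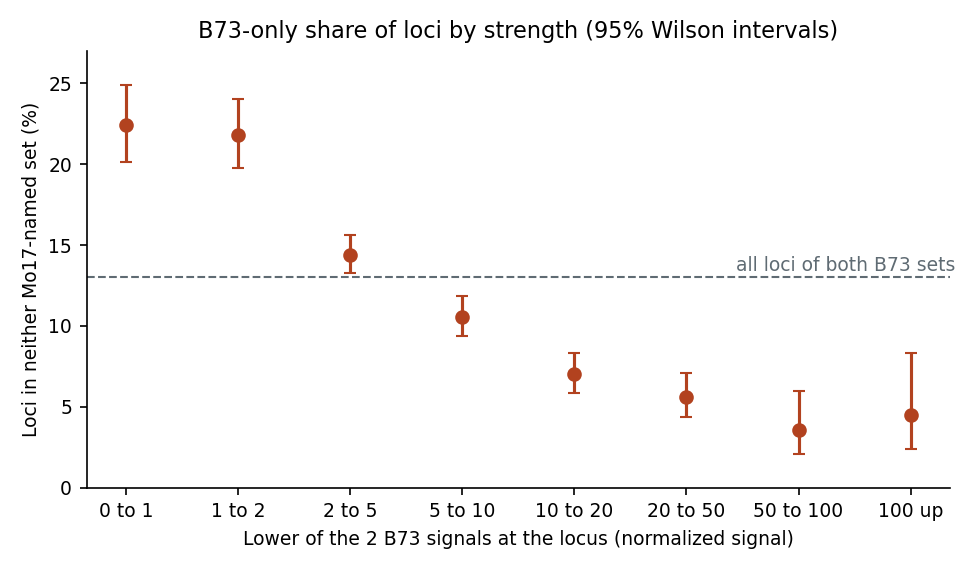
Share of loci of both B73 sets that were listed in neither Mo17-named set (%), by the lower of their 2 B73 signals in normalized units. Points are shares, bars are 95% Wilson intervals and the dashed line is the share over all 11810 loci. The share is 22.4% below a signal of 1 and 4.50% at 100 or more.

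The strongest B73-only loci were well above any listing limit. The first, ranked by the lower of its 2 signals, spanned 2744993 to 2745000 on the plus strand of chromosome 7. It had a root signal of 475 and a shoot signal of 457, and its strongest sites held 932 tags in root and 1864 in shoot. The nearest Mo17-named cluster on its strand was 421215 bp away.

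The next, at 21158674 to 21158711 on the plus strand of chromosome 4, had a root signal of 1239 and a shoot signal of 314. A Mo17-named cluster lay only 107 bp from it on the same strand. The next, at 18244663 to 18244681 on the same strand and chromosome, had a root signal of 229 and a shoot signal of 263, with its dominant site at 18244666 in both tissues. No Mo17-named cluster lay within 219222 bp on its strand.

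The fourth locus, at 163648582 to 163648589 on the minus strand of chromosome 7, lay close to a start region of the other sets. It had a root signal of 375 and a shoot signal of 162, and a Mo17-named cluster on the same strand lay 3 bp away. The fifth, at 175913972 to 175914149 on the minus strand of chromosome 3, had a root signal of 147 and a shoot signal of 227 and lay 30985 bp from the nearest Mo17-named cluster. The other 5 of the 10 strongest lay on chromosomes 1, 3, 4, 6 and 7. Among them the locus at 184764942 to 184764953 on the minus strand of chromosome 4 differed most between tissues, with a root signal of 1052 and a shoot signal of 122. The other 4 had a root signal of 144 to 269 and a shoot signal of 97.002 to 146. All 5 were at least 40142 bp from a Mo17-named cluster on their strand. In 7 of the 10 strongest loci root and shoot shared the dominant site, and 9 of the 10 were at most 6 bp wide in both tissues, where width runs from the 10th to the 90th percentile of a cluster's signal. The exception, at 102424175 to 102424217 on the plus strand of chromosome 7, was 13 bp wide in root and 12 bp in shoot.

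Most B73-only loci had no Mo17-named cluster within 1000 bp on the same strand. The median distance to the nearest such cluster was 43594 bp on the same strand and 16590 bp on either strand. Distances from other places in the genome were not computed, so whether these are long for the genome is not known. On the same strand, 1257 of the 1530 loci (82.2%) were over 1000 bp away and 462 (30.2%) were over 100000 bp away. A further 184 (12.03%) had a Mo17-named cluster within 100 bp, so that the start regions there were side by side and not overlapping. At the edge of the rule, 78 B73-only loci had a Mo17-named cluster within 10 bp, and 892 of the other loci were kept out by an overlap of 1 bp. The 892 include clusters of 1 base, where 1 bp is all that can be shared, and such cases were not counted apart. Just inside lay 529606 on chromosome 2, plus strand, with a root signal of 22.3 and a shoot signal of 5.61 and 0 bp to the next Mo17-named cluster. Also with 0 bp between were 39146063 to 39146120 (14.1 in root, 2.44 in shoot) and 228213261 to 228213278 (0.417 in root, 2.22 in shoot), both on the minus strand of chromosome 1. Just outside, with 1 bp shared, lay 3880170 to 3880178 on the minus strand of chromosome 1 (3.87 in root, 7.03 in shoot) and, on its plus strand, 5525444 to 5525473 (1.24 in root, 2.01 in shoot). Also with 1 bp shared was 5828710 on that plus strand (29.7 in root, 17.97 in shoot). This locus is 1 base long and listed in all 4 sets, so the overlap there is complete and not marginal. The limit for dense runs removed 19 loci that otherwise met the rule, and no B73-only locus belonged to a row of 9 sites.

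The numbering of the clusters allowed a look at what the lists leave out, a measure the rule did not use. Cluster numbers run in genome order along each strand of a chromosome, and the highest numbers, 49152 in the Mo17-named root set and 51286 in the Mo17-named shoot set, exceed the 18358 and 22875 clusters listed. Skipped numbers were read as clusters that had been numbered and not listed, although the files do not say what the numbers mean, and the shares below rest on this reading. At 1464 of the 1530 B73-only loci (95.7%, 94.5 to 96.6), no number was skipped in either Mo17-named set between the listed clusters that flank the locus on its strand. With a lower signal of at least 50 in B73 this held for 22 of 22 loci. Skipped numbers were bunched, since 97.3% of neighbouring clusters in the Mo17-named root set and 97.1% in the shoot set had consecutive numbers. An absence of skips was thus common throughout these lists. The 95.7% counts loci and both sets at once, a different unit, and no such share was computed for other places in these lists. Clusters of 1 base were listed only from 22 tags in the Mo17-named root set and 18 in the Mo17-named shoot set, whereas clusters of more bases were listed with as few as 1 tag at the dominant site. Of the B73-only loci, 70 (4.58%) were 1 base long, against 133 of the 10280 other loci (1.29%). Loci were merged over all sets, so another locus is 1 base long only where every cluster in it is.

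Absent loci were then followed along the chromosomes, to see whether they formed stretches. B73-only loci tended to be next to each other, but weakly. In the order of loci of both B73 sets, both strands together, the locus after a B73-only locus was itself B73-only in 260 of 1530 cases (17.0%, 15.2 to 19.0), and the locus after another locus in 1270 of 10270 cases (12.4%), beside the 13.0% over all loci. At the second next locus the share was 17.1%, at the fifth 14.5%, at the thirtieth 16.2% and at the fiftieth 13.0%. The excess was present for neighbours over 10000 and up to 100000 bp apart, with 18.8% of 601 (15.9 to 22.1) after a B73-only locus and 12.1% of 3879 (11.1 to 13.2) after another locus. Beyond 100000 bp the shares were 14.0% of 695 (11.6 to 16.7) and 12.1% of 5042 (11.3 to 13.1), with overlapping intervals. It was larger when the next locus lay on the same strand (18.5% against 11.7%) than on the other strand (15.3% against 13.1%), a difference that was not tested. Where both B73 signals reached 5, the shares were 11.5% after a B73-only locus and 7.90% over all such loci.

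**Figure D2:**
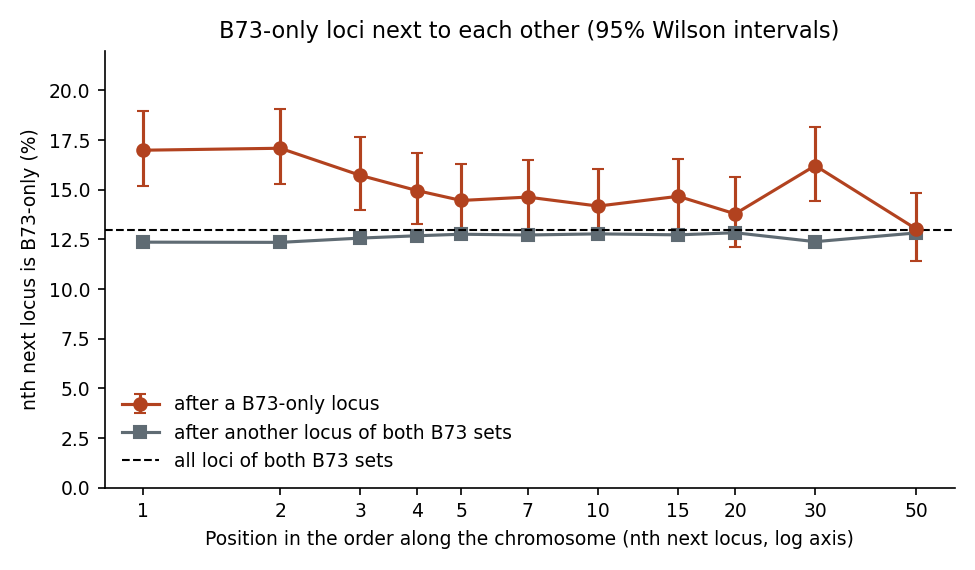
Share of loci that are B73-only (%) at the nth next position along the chromosome (log axis), after a B73-only locus (circles, with 95% Wilson intervals) and after another locus of both B73 sets (squares). The dashed line is the share over all loci. The share is 17.0% at the first position and 13.0% at the fiftieth after a B73-only locus.

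Long stretches were few. Rows of at least 3 consecutive B73-only loci numbered 43 and held 137 loci, 8.95% of all. Rows of at least 4 numbered 7, and only 1 row had 5. They were 360 to 1676573 bp long with a median of 209606 bp. When the stretch was also required to hold no Mo17-named cluster on either strand between its first and last locus, 14 stretches with 43 loci were left, with a median length of 75589 bp and a maximum of 480987 bp. No stretch of 5 met that condition.

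The row of 5 lay at 10236631 to 10501182 on chromosome 5, 3 loci on the minus strand and 2 on the plus strand. From low to high position their root signals were 3.58, 1.22, 1.15, 2.50 and 4.60, and their shoot signals were 18.8, 4.25, 7.29, 11.1 and 3.47. All 5 had a root signal below the median of the other loci, while the first stood above their median in shoot and had a Mo17-named cluster directly beside it. The last 4, from 10243463 on, had none between them, and this was the only stretch of 4 free of Mo17-named clusters, with 257720 bp.

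The longest row lay at 93761334 to 95437906 on the minus strand of chromosome 2 and held 4 loci over 1676573 bp. Its first locus was the strongest, with a root signal of 34.6 and a shoot signal of 42.2. The other 3 had a root signal of 2.01 and of 0.267 at both others, and a shoot signal of 9.29, 17.1 and 4.67. Inside the row lay 3 Mo17-named clusters. The third of the rows with the most loci, at 22002211 to 22726760 on chromosome 6, held 4, with root signals of 8.13, 11.7, 5.53 and 0.888, shoot signals of 2.32, 5.18, 11.1 and 5.58, and 5 Mo17-named clusters between them.

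Among stretches free of Mo17-named clusters, stronger loci appeared. At 113948769 to 114429755 on chromosome 2 the first of 3 loci had a root signal of 174 and a shoot signal of 11.4, and the others 3.81 and 2.19 in root and 9.89 and 10.9 in shoot. On chromosome 3, from 144961827 to 145218593, root signals were 0.267, 70.5 and 15.05 and shoot signals 11.2, 13.05 and 19.5. The nearest Mo17-named cluster on either strand lay 184025 bp before this stretch and 179415 bp after it. On chromosome 8, from 163735211 to 163906311, root signals were 3.67, 13.9 and 3.15 and shoot signals 9.41, 127 and 20.9. On chromosome 1, from 187877673 to 188011602, the 3 loci had root signals of 13.2, 4.04 and 1.89 and shoot signals of 3.95, 7.47 and 9.45.

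**Figure D3:**
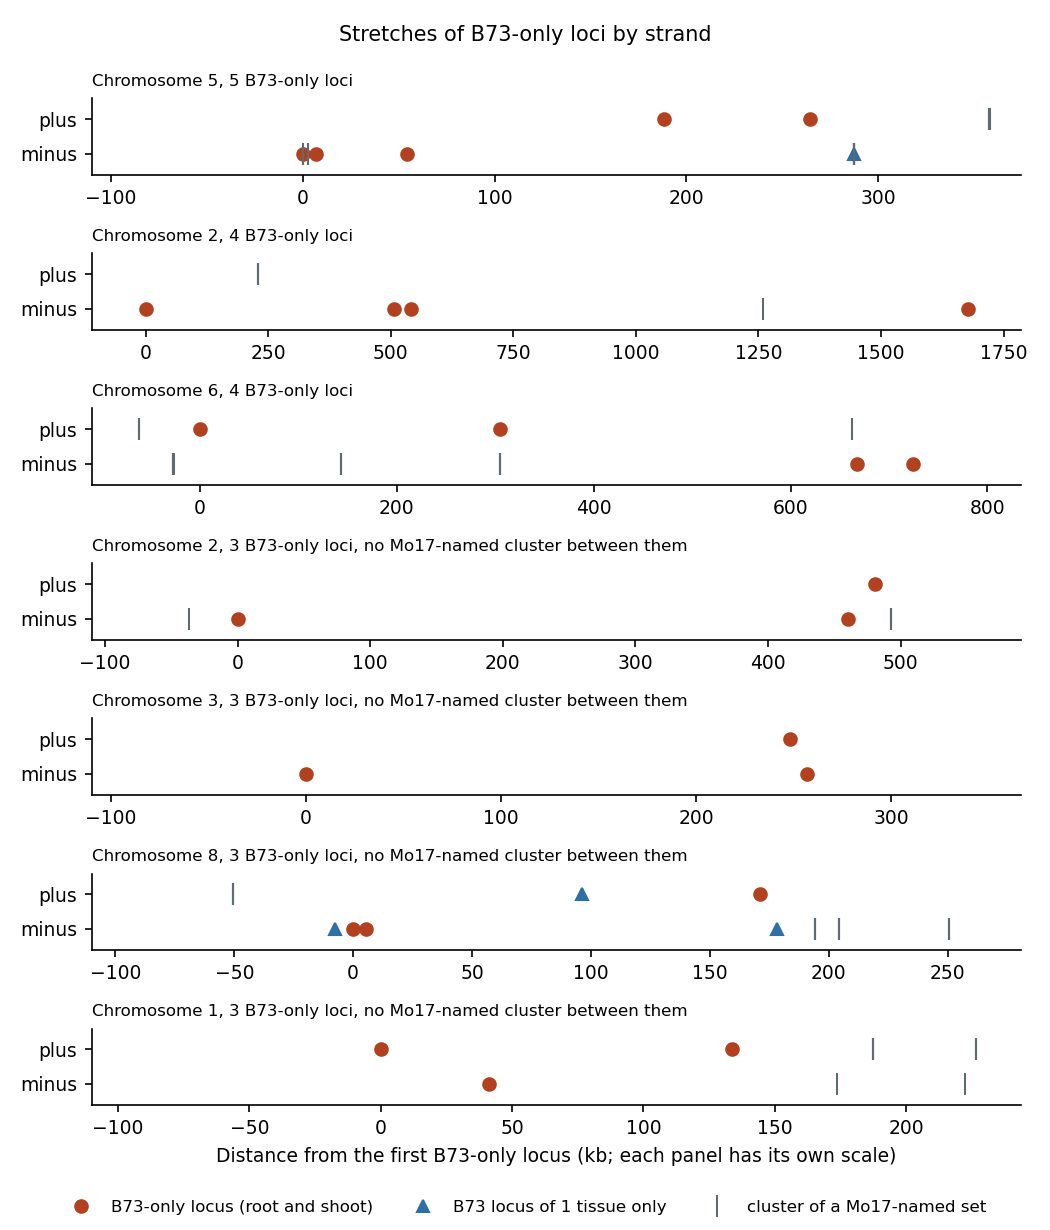
Positions of B73-only loci (circles), loci of B73 root or shoot alone (triangles) and Mo17-named clusters (ticks) by strand in 7 stretches, as distance in kb from the first B73-only locus, with 100 kb on each side. The top 3 are the rows with the most B73-only loci, and the lower 4 hold no Mo17-named cluster between their first and last locus.

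Some regions, looked for after the values were seen, held no B73-only locus. The row with the most loci held 112 over 27824563 bp at 86435161 to 114259723 on chromosome 10. By number of loci, the next held 91 on chromosome 6 (137830352 to 146669747). Rows of 81 lay on chromosome 1 (105163455 to 147171663) and on chromosome 3 (35503109 to 57653367). In all, 14 rows of at least 50 loci held 994 loci, while the median row had 5. Their loci had a median lower signal of 4.82, against 5.25 over all other loci. Loci of the opposite kind were listed in both Mo17-named sets and in neither B73 set. They occurred in these rows at 24.0 per 100 loci of both B73 sets, against 26.0 over the genome. In the row on chromosome 10 there were 25 of them. The genome rate has the B73-only loci in its denominator, whereas the rows were chosen to hold none. Without B73-only loci in the denominator the genome rate would be higher, so these rates cannot be compared directly.

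By chromosome, the share of B73-only loci was lowest on chromosome 10, with 61 of 742 loci (8.22%, 6.45 to 10.4), and highest on chromosome 9, with 141 of 898 (15.7%, 13.5 to 18.2). The other chromosomes lay between 11.9% and 14.6%. Over 184 bins of 10 Mb with at least 20 loci, the share had a median of 13.0% and an 80% range of 4.05% to 21.1%. The highest share was 34.3% (12 of 35 loci, 20.8 to 50.8) at 140 to 150 Mb of chromosome 4, followed by 29.4% (10 of 34, 16.8 to 46.2) at 110 to 120 Mb of chromosome 2. No B73-only locus was found in 7 bins, of which those with the most loci were at 40 to 50 Mb of chromosome 5 and 100 to 110 Mb of chromosome 10, with 0 of 40 loci each (interval up to 8.76%). Across the 184 bins, Pearson's r between the share of B73-only loci and the share of loci listed only in both Mo17-named sets was 0.244 (Spearman's rho 0.207). Both shares have the loci listed in all sets in their denominators. With both counts set over the loci of both B73 sets, r was 0.00617 and rho -0.017. That denominator is shared as well and contains the B73-only loci, so more of them lower the other ratio. Neither form can therefore show whether these kinds of loci go together across bins. Bins share chromosomes and are not replicates.

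Start regions of B73-only loci were narrower than those of the other loci. Clusters were called sharp when at most 10 bp wide, with a signal of at least 1. In root 797 of 1294 B73-only loci were sharp (61.6%, 58.9 to 64.2), against 47.3% of 9442 other loci (46.3 to 48.3). In shoot it was 749 of 1501 (49.9%, 47.4 to 52.4) against 36.4% of 10201 (35.5 to 37.4). Median widths were 5 bp and 13 bp in root, and 11 bp and 30 bp in shoot.

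The gap in width was present in each step of the lower signal from 1 upwards and widest at 20 or more. With a lower signal from 1 to below 2, 57.7% of 317 B73-only loci were sharp in root and 43.5% of 1136 other loci. With 20 or more, 73 of 85 B73-only loci (85.9%, 76.9 to 91.7) were sharp in root against 55.4% of 1606 (52.9 to 57.8), and in shoot 67 of 85 (78.8%, 69.0 to 86.2) against 46.5% (44.02 to 48.9). The rule bears on this measure, because a narrow cluster overlaps a neighbour less readily than a wide one. It bears on the other loci as well, since they were defined by such an overlap. Limiting the B73-only loci by distance, as below, does not remove that part. Of the B73-only loci within 100 bp of a Mo17-named cluster, 73.6% were sharp in root and 65.7% in shoot. Among those over 1000 bp from any Mo17-named cluster on the same strand, the strand on which overlap was judged, the shares were 59.6% (56.6 to 62.5) in root and 46.9% (44.2 to 49.7) in shoot, and at a lower signal of 20 or more 83.9% of 62 (72.8 to 91.0) and 74.2% (62.1 to 83.4).

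**Figure D4:**
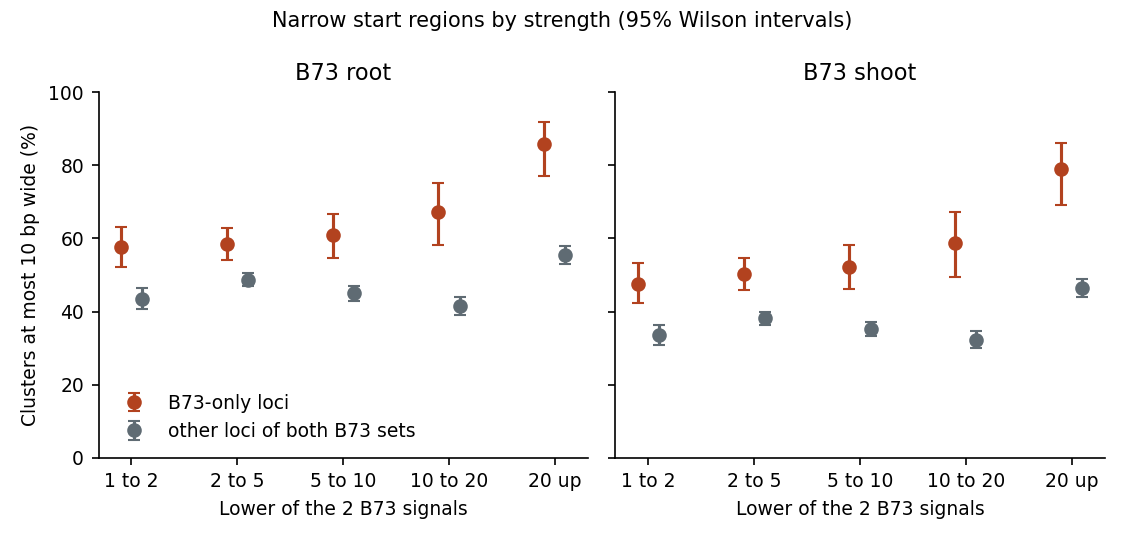
Share of loci with a start region at most 10 bp wide (%) in B73 root and B73 shoot, by the lower of the 2 B73 signals, for B73-only loci and for the other loci of both B73 sets. Bars are 95% Wilson intervals. At a signal of 20 or more the shares are 85.9% and 55.4% in root.

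Root and shoot chose the same dominant base about as often at B73-only loci as elsewhere. The dominant site was identical in 731 of 1530 B73-only loci (47.8%, 45.3 to 50.3) and in 48.9% of the other loci (47.98 to 49.9), and it was over 10 bp apart in 20.8% and 23.1%. The share was higher at stronger loci. With a lower signal of 20 or more, 61 of 85 B73-only loci had the same site (71.8%, 61.4 to 80.2) against 60.3% of 1606 (57.9 to 62.7), and 2 of the 85 were over 10 bp apart against 11.1%. The B73-only loci of this step were also narrower, with median widths of 3 bp against 8 bp in root and 4 bp against 14 bp in shoot. The part of width in these comparisons of sites was not tested.

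The difference between tissues at B73-only loci was then examined, since the study's design names root against shoot within each line. A difference was called when it was at least 4-fold on log2(signal + 1), a scale that understates weak loci, with the higher signal at least 1. By this rule 75 B73-only loci were higher in root (4.90%, 3.93 to 6.10), beside 4.29% of all 11810 loci of both B73 sets, and 175 were higher in shoot (11.4%, 9.94 to 13.1), beside 14.7% of all. The root share was near that of all loci. The shoot share was below it here, but above it at a 2-fold limit (37.0% of B73-only loci, 35.1% of all) and with a pseudocount of 0.1 (22.9% and 20.7%), so no direction can be given for it. Recovered tags count the dominant site alone, whereas the signal covers all clusters of a set in the locus. On recovered tags scaled to the total of such tags in each set, 12.1% were higher in root, beside 11.7% of all. In shoot it was 4.97%, beside 7.87%. Shoot made up 70.0% of the calls on the deposited signal, 34.2% after quantile normalization of that signal and 29.1% on recovered tags. The direction of the split thus depends on the scale and measure used. At B73-only loci log2 root minus shoot had a median of -0.56 on the deposited signal, with -0.50 over all loci, and 0.46 on recovered tags, with 0.46 over all loci. In such bulk tissue, fewer cells using a start site and less RNA per cell cannot be told apart. Root libraries of B73 were amplified for 16 PCR cycles and those of B73 shoot for 14, and the part of this in any tissue difference was not tested.

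Among loci with a higher signal of 100 or more, the B73-only ones were more often higher in root. In this step 19 of 43 B73-only loci were higher in root (44.2%, 30.4 to 58.9) against 143 of 747 other loci (19.1%, 16.5 to 22.1), and 6 of 43 were higher in shoot (14.0%, 6.56 to 27.3) against 29.9% (26.7 to 33.2). From 20 to below 100, 16.7% of 215 (12.3 to 22.3) were higher in root against 7.14% of 3080 (6.29 to 8.11), and 21.9% were higher in shoot against 21.7%. In that step more B73-only loci were higher in shoot (47) than in root (36). On recovered tags the loci with a signal of 100 or more gave 24 of 43 higher in root (55.8%, 41.1 to 69.6) against 23.7% (20.8 to 26.9), and 6 of 43 higher in shoot against 28.9%. The higher share in root was thus present for the signal of the locus and for the tags of its dominant site. Both were taken on the same loci, chosen by the deposited signal, so the tags are not a separate check. After quantile normalization the share was not computed.

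**Figure D5:**
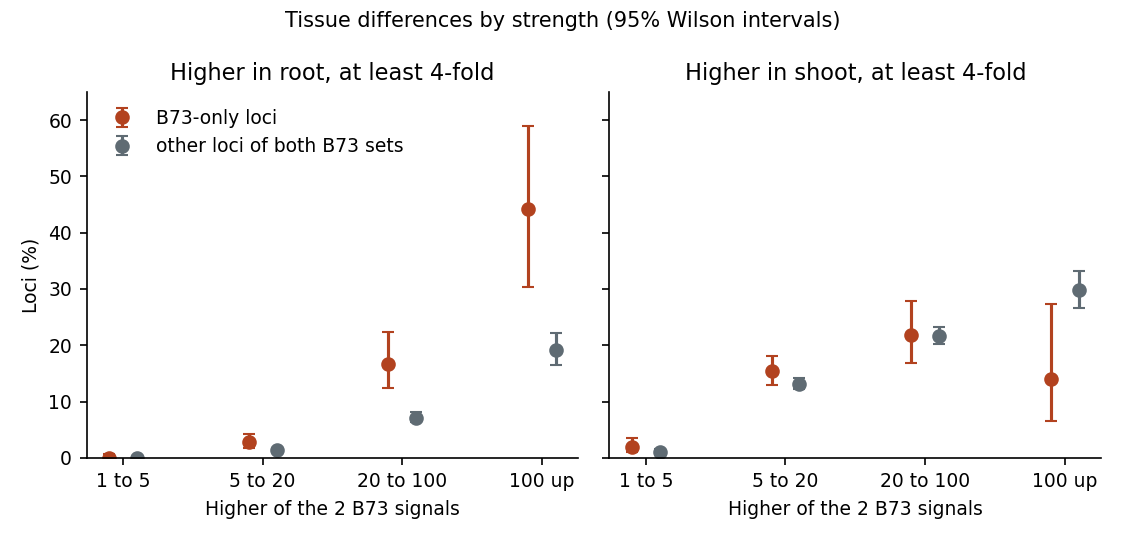
Share of loci at least 4-fold higher in B73 root or in B73 shoot (%), by the higher of the 2 B73 signals, for B73-only loci and for the other loci of both B73 sets. Bars are 95% Wilson intervals. At 100 or more, 44.2% of B73-only loci and 19.1% of the other loci were higher in root.

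The B73-only locus with the largest excess in root lay at 236962344 to 236962346 on the plus strand of chromosome 1. It had a root signal of 190 and a shoot signal of 2.86, which is 5.63 as a log2 difference, with 770 tags in root and 13 in shoot at its dominant site, 236962346 in both tissues. The next had root signals of 83.8 (36614804 to 36614841, plus strand of chromosome 5), 134 (138860172 to 138860255, minus strand of chromosome 10), 105 (133840431 to 133840435, minus strand of chromosome 7) and 47.3 (210461269 to 210461272, minus strand of chromosome 5). Their log2 differences were 5.27, 5.18, 4.82 and 4.46, and their shoot signals lay between 1.20 and 2.74. The largest excess in shoot was at 40190291 to 40190431 on chromosome 4, minus strand, with a root signal of 0.417 and a shoot signal of 217, which is -7.27 as a log2 difference. At the dominant site, 40190395 in both tissues, were 2 tags in root and 899 in shoot. It was followed by a locus on the minus strand of chromosome 8 (137678868 to 137678923, 3.71 in root, 240.2 in shoot, log2 difference -5.68) and one on the plus strand of chromosome 10 (141387838 to 141387860, 2.19 in root, 133 in shoot, -5.39). The other 2 lay on the minus strand of chromosome 5 (10776842 to 10776970, 0.267 in root, 51.4 in shoot, -5.37) and the plus strand of chromosome 2 (102822801 to 102822992, 0.575 in root, 61.6 in shoot, -5.31). Of these 10 loci, 3 had a Mo17-named cluster within 1000 bp on the same strand. It lay 185 bp from the root-higher locus on chromosome 10, 417 bp from the shoot-higher locus on chromosome 8 and 49 bp from the shoot-higher locus on chromosome 10.

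How tags of the Mo17-named sets were aligned bears on every absence. Bowtie2 is named in the submitters' processing notes, while no source used here gives the genome build. If the tags were placed on a B73 genome, a tag whose sequence differs from that genome may go unplaced. The locus is then not listed, whether or not it was transcribed. A missing sequence, an unplaced tag and an inactive promoter cannot be told apart with these files. At the level of whole sets, the B73 sets held 14568 clusters in root and 19880 in shoot, with 1267305 and 2394924 tags at dominant sites, and the Mo17-named sets held 18358 and 22875 clusters, with 2797561 and 3409185 such tags. At the dominant sites of listed clusters, the Mo17-named sets thus held more tags than the B73 sets, and the total of placed tags is not known here. Loci listed in both tissues of 1 line alone were 1530 of 11810 for B73 (13.0%) and 3070 of 14588 for the Mo17-named sets (21.0%). The depths differ in the same direction, and their part in this contrast was not tested.

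Loci next to B73-only loci were also examined. Of the other loci directly beside a B73-only locus, 147 of 2330 lacked a cluster in 1 of the 2 Mo17-named sets (6.31%, 5.39 to 7.37), against 376 of 7950 elsewhere (4.73%, 4.28 to 5.22). The dominant base in shoot was the same in B73 and the Mo17-named set at 60.1% of 2267 loci beside a B73-only locus and at 64.6% of 7791 elsewhere. In root it was the same at 44.6% of 2246 and 45.9% of 7733. Median lower signals of these loci were 5.38 and 5.22.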

How the data were processed

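CAGE tags from roots and shoots were sequenced, and the submitters' processing notes list Bowtie2 2.0.4. No source used here gives a genome build, a clustering tool or thresholds. The deposited signal follows, from its values, a constant times a tag number raised to an exponent in each set, so the authors had normalized it. Solving this at dominant sites gave whole tags for 100% of sites within 0.01. The authors' score is a deposited shape value not named in the files. Widths are the deposited distances between the 10th and 90th signal percentiles, in bp. Replicates were pooled in the deposited sets. Starts in the cluster table count from 0 and were raised by 1.

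Members and lists were chosen with earlier results of these data known. Named loci are the 10 strongest, the 5 with the largest tissue difference each way, the members of the 3 fullest stretches and of the 5 longest stretches free of Mo17-named clusters, and 3 at each side of the overlap limit. The rows without B73-only loci, the skipped cluster numbers, the split at 1000 bp and the steps of signal were added after seeing the data. Computation used scipy 1.17.1 and pandas 2.3.3 with numpy 2.4.6 under Python 3.11.15, figures matplotlib 3.10.9, and the locus rule was tested on simulated data. Gene lists could not be scored, and no sequence is shown.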

Additional observations from a re-analysis of the deposited data

How the results depend on the processing

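No value per library exists, so leaving out a replicate could not be run. No paired analysis was possible because the sets carry no replicate. The number of B73-only loci stayed within 1.5 times of 1530 under other merging, strand and run rules. It was 454 with a signal of at least 5 and 750 with at least 10 tags in both sets. Fewer loci enter under these limits. The share of next loci that are B73-only was 15.05% when clusters within 500 bp were merged (beside 1276 of all 11600 loci), 11.5% beside 7.90% with a signal of at least 5 and 14.95% beside 9.66% with at least 10 tags. Stretches numbered 27 with a signal of at least 1, 5 with at least 5, 12 with at least 10 tags, 1 when 5 consecutive loci were required and 14 when no Mo17-named cluster was allowed. Loci higher in root and in shoot were 187 and 566 at 2-fold (12.2% and 37.0%, beside 12.4% and 35.1% of all loci). After quantile normalization they were 127 and 66 (8.30% and 4.31%, beside 7.54% and 8.24%). On recovered tags of the dominant site they were 185 and 76 (12.1% and 4.97%, beside 11.7% and 7.87%). With a pseudocount of 0.1, 351 were higher in shoot (22.9%, beside 20.7%). The shoot share thus exceeded that of all loci at 2-fold and with this pseudocount and was below it otherwise. With 5 bp as the limit, sharp loci made up 51.9% in root and 38.8% in shoot, with the score above -1, 94.8% and 93.1%, and 66.8% in root with a signal of at least 5, and 46.9% in shoot over 1000 bp from Mo17-named clusters, an alternative chosen after seeing the data. Under each of these the B73-only share was above that of the other loci. Dominant sites lay within 10 bp in 79.2%, and were the same in 70.8% with at least 20 tags. Of loci with a signal of at least 20, 5.03% were B73-only, and of those with at least 100 tags, 6.90%.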
